A study of Mus musculus with 11 samples.

Results

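Collagen genes were examined in the aorta of old mice with and without dietary nitrate. The members were all array features, control spots left out, whose gene name read Col, a number, a and a number, as collagen chain genes are named in the mouse. The rule found 41 genes, measured by 61 probes on 70 spots, among 36413 gene names and 55681 probes on an array of 59305 spots. A probe described as Col6a3 carried a transcript identifier in place of the symbol and was not a member. Of the 41 genes, 25 had a detected probe (33 probes), that is, a probe whose spot the scanner software found, and rated as well above background, in 5 or more mice of the same group. All values below are on the log2 scale of the quantile normalized signal of 1 probe per gene, the brightest detected one, and a difference is nitrate minus control.

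RNA of the descending aorta was hybridized to one-color oligonucleotide arrays, 1 mouse per array. The nitrate group was 5 male C57BL/6 mice aged 20 months that drank water with 1 g/L NaNO3 during 8 weeks. The control group was 6 male C57BL/6 mice aged 20 months whose labels give the agent as control and refer to samples of an earlier series. The labels do not name what the controls drank, while the methods of the study name an equal concentration of NaCl. The study describes 6 mice in each group, and 1 nitrate mouse was not analysed here. The labels name no engineered allele for either group, and the array measures the whole vessel wall, so that fewer cells of a type and less RNA per cell cannot be told apart.

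Collagens are triple helices, and glycine, the residue small enough for the centre of the helix, recurs at a fixed step of every chain. Fibrillar collagens (types I, III and V in the arterial wall) give the media and adventitia tensile strength, network collagens such as type IV form the sheet of the basement membrane around smooth muscle cells and under the endothelium, and fibril-associated collagens with interrupted triple helices (FACITs) sit on the surface of fibrils. Among the remaining chains are the beaded filaments of type VI, the anchoring fibril of type VII, transmembrane collagens, and the multiplexins Col15a1 and Col18a1 of the basement membrane zone, the latter the precursor of endostatin.

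The glycine repeat can be read in the array itself. A run of at least 4 glycine codons (GGN) in steps of 9 bases occurred in 4 of the 61 collagen probes (6.56%) and in 47 of 55620 other probes of 60 bases (0.0845%). Those probes, shown because they carry the sequence feature that defines the family, are given with the run of glycine codons in capitals, read on the strand of the transcript. They lay, in the mm9 build, at chr15:55347733-55347792 (plus strand) for Col14a1, chr4:47283786-47283845 (plus) for Col15a1, chr4:129756457-129756516 (plus) for Col16a1 and chr3:130270497-130270556 (plus) for Col25a1. The probes of Col14a1 and Col15a1 were detected in the aorta, and the Col15a1 probe is the one whose values are given here.
Col14a1: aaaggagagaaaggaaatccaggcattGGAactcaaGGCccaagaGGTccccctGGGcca
Col15a1: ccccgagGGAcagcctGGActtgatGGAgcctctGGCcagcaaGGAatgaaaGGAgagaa
Col16a1: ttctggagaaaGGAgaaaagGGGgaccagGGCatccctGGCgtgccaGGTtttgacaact
Col25a1: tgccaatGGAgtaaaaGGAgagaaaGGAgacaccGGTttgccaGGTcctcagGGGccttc

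The arrays lay on 3 slides that each held both groups, the third of which was scanned on a later day, whereas all 6 controls and no nitrate array lay in the same column of the slides, so that column and treatment cannot be told apart. Over all 18294 detected gene names the median difference was 0.02, and 54.6% of the differences were above 0. Control 1 stood apart, with a mean correlation with the other arrays of 0.985 against 0.990 to 0.993 for the others, the lowest summed signal of smooth muscle markers (544000, against 658500 to 724000 in the other 10 mice) and the highest of brown adipocyte markers (313000, against 110000 to 262000). Heart muscle markers were high in nitrate 4 (55200) and control 1 (35200) and at 1750 to 9956 in the others. Markers of smooth muscle, fibroblasts and endothelium were all detected (8 of 8 each).

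To ask which collagens differed between old mice with and without nitrate, the 25 detected genes were compared at an unadjusted P value below 0.05 and a fold change above 1.2, the thresholds of the study. Higher with nitrate were 3, the basement membrane chains Col4a5 and Col4a6 and the endostatin precursor Col18a1, and 1 was lower, the minor fibrillar chain Col5a3. These 3 stand against 4.27% of all detected names called higher by the same rule, the 1 against 4.62% called lower, and the 4 together against 8.89%. At P below 0.05 without a fold limit, 5 collagen genes passed (Col4a4 added), against 14.5% of all names. The nitrate and control values did not overlap in 4 (Col4a4, Col4a5, Col4a6 and Col5a3), against 2.94% of all names. With Benjamini-Hochberg adjustment over the 23632 detected probes in limma, no collagen gene passed (smallest adjusted P = 0.120, Col5a3), against 0.00547% of all names.

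The 25 differences ran from -0.61 to 0.41 with a median of 0.13, 20 above and 5 below 0. Over all names the median was 0.02, with 54.6% above 0. By class, fibrillar genes had 6 of 7 differences above 0 (median 0.11), network genes 4 of 7 (median 0.23), FACIT genes 4 of 5 (median 0.13) and the other chains 6 of 6 (median 0.11). The only member called lower was fibrillar, and of those called higher 2 were network chains and 1 was a multiplexin. No FACIT gene was called, beside 8.89% of all names called in either direction. By the probe used, Col2a1 passed the detection rule through the nitrate group alone, and Col9a2, Col16a1 and Col20a1 through the controls alone. A dimmer probe of Col16a1 passed it in both groups. Part of the lean to positive values came with control 1. It had the lowest value of the 11 mice in 12 of the 25 genes, and without it 16 of the 25 differences were above 0.

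**Figure D1:**
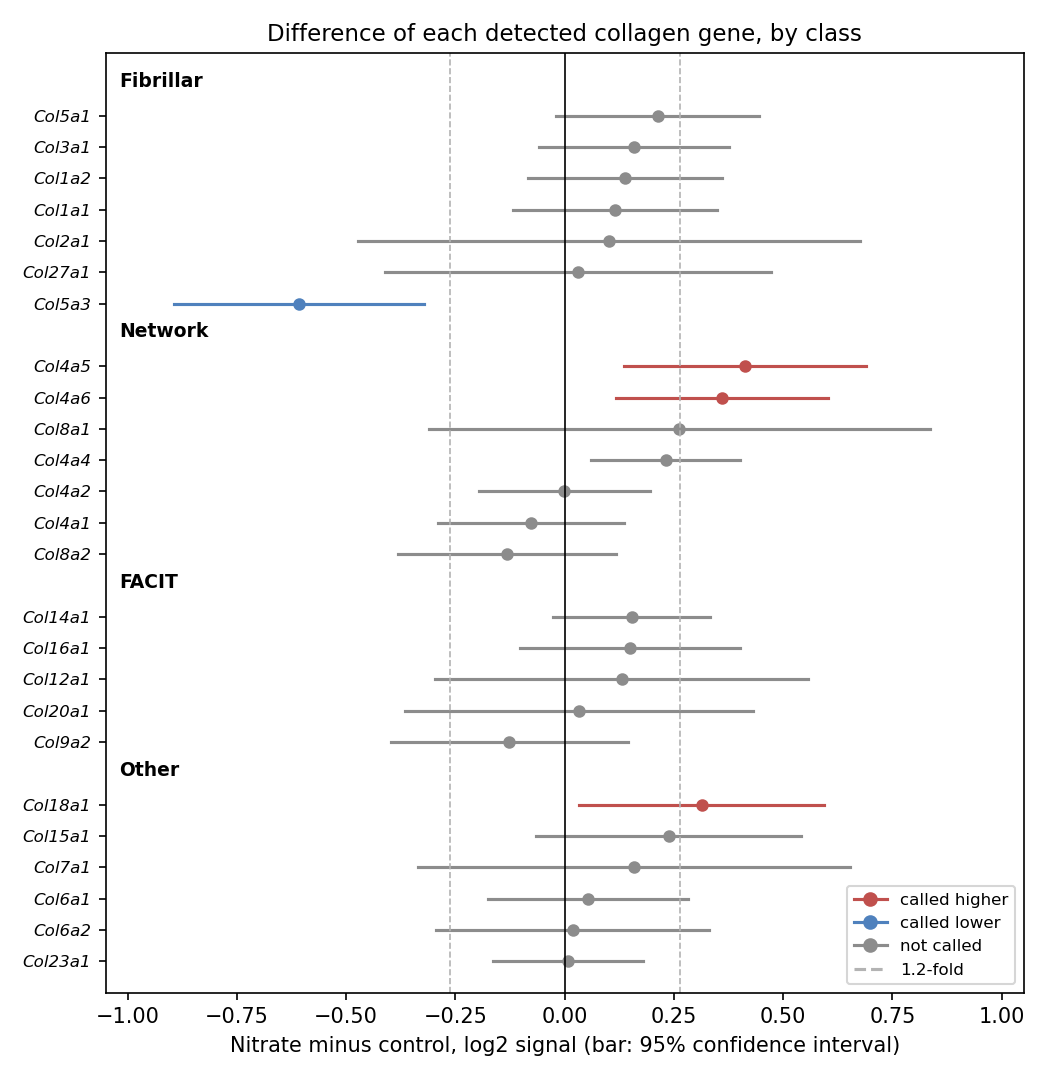
Difference of the 25 detected collagen genes by class with nitrate minus control on the x axis (log2 scale), estimates as points, 95% confidence intervals as bars, and a fold of 1.2 in either direction as dashed lines (red for called higher, blue for called lower). Most estimates lie a little above 0 with intervals that include it, Col4a5 and Col4a6 lie highest, and Col5a3 is the single gene far below 0.

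Type IV collagen held both network genes called higher. Its 6 chains are encoded by 3 head-to-head gene pairs. Col4a1 and Col4a2 encode the chains of the network found in all basement membranes, Col4a3, Col4a4 and Col4a5 chains assemble with one another in membranes such as that of the glomerulus, and Col4a5 chains also assemble with Col4a6 chains, as in smooth muscle. On the mouse assembly GRCm38.p6 (RefSeq), the start sites of Col4a5 and Col4a6 lie 1343 bases apart on chromosome X and point away from each other, those of Col4a1 and Col4a2 lie 21 bases apart on chromosome 8, and the annotated start of Col4a3 lies 72 bases from that of Col4a4 on chromosome 1.

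The 250 bases before the start sites of Col4a5 and Col4a6 are printed because these neighbours were the 2 network genes called higher. On GRCm38.p6, the Col4a5 stretch is chrX:141475169-141475418 (plus strand) and the Col4a6 stretch chrX:141474077-141474326 (minus strand), each written 5′ to 3′ on its own strand. Capitals mark matches, on either strand, to a TATA box (searched as TATAAA), to a CCAAT box or to a GC box (searched as GGGCGG), and these matches do not overlap each other.
Col4a5: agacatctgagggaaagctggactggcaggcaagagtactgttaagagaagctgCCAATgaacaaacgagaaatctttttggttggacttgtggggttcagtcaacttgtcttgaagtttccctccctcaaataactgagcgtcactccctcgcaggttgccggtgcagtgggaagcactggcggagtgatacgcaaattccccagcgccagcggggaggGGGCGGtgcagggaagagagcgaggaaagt
Col4a6: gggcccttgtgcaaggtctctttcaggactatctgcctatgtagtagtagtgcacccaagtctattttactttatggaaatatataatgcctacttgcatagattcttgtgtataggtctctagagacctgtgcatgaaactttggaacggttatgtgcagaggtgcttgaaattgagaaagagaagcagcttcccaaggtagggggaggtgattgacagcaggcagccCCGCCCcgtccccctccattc
Each stretch held 1 GGGCGG, a match found in 32.7% of the 32851 promoter windows of the same length. The Col4a5 stretch also held 1 CCAAT (33.8% of all windows), and neither held TATAAA (12.4%). The GC content was 54.0% for Col4a5 and 47.6% for Col4a6, on either side of the median of 52.4%, whereas those of Col4a1 and Col4a2 had 74.4% and 73.6%.

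Col4a5 was measured by 1 probe (mm9, chrX:138123547-138123606). Its values were 10.86, 10.88, 10.96, 10.83 and 10.92 in the 5 nitrate mice and 9.91 at the lowest, 10.56 at the median and 10.74 at the highest of the controls. All nitrate mice lay above all controls, and they lay close together (SD 0.05, against 0.30 in the controls and 0.12 without control 1). The group means were 10.89 and 10.48, a difference of 0.41 (SE 0.13, 95% confidence interval 0.14 to 0.69) or 1.33-fold, with P = 0.00712, an adjusted P = 0.217 and an exact permutation P = 0.00433 (two-sided, over the 462 divisions of the mice, where 0.00216 is the smallest possible). Control 1 was the low control, and without it the difference was 0.30 and still called.

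Col4a6 had 2 detected probes. The brighter one (mm9, chrX:137599990-137600049) read 11.73, 11.62, 11.57, 11.74 and 11.98 in the nitrate mice, and 10.97, 11.42 and 11.56 at the lowest, median and highest control. Again no nitrate value fell into the control range, although the lowest nitrate mouse and the highest control were close. The difference was 0.36 (SE 0.11, interval 0.12 to 0.60) or 1.28-fold, with P = 0.00730, adjusted P = 0.218 and exact permutation P = 0.00433. The dimmer probe gave 0.26 (exact permutation P = 0.0216), the same direction at a fold just below 1.2, with overlapping groups.

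Col4a4 differed less. Its brighter probe (mm9, chr1:82447879-82447938) read 9.11, 9.16, 9.16, 9.07 and 9.09 with nitrate, against 8.64, 8.90 and 9.05 at the lowest, median and highest control. The groups did not overlap, with the highest control just under the lowest nitrate mouse. The difference of 0.23 (SE 0.08, interval 0.06 to 0.40, P = 0.0123, adjusted P = 0.251, exact permutation P = 0.00866) was 1.17-fold and thus short of the fold threshold. A dimmer detected probe of Col4a4 gave 0.12 (exact permutation P = 0.394), and the mean of both gave 0.18, which did not pass at P below 0.05.

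Col4a3, the partner of Col4a4, was outside the detection rule, since its spot was found by the software on 4 nitrate and 4 control arrays only, although it was well above background on all 11. Its values, from a fit over all probes (mm9, chr1:82717775-82717834), were 6.20, 6.46, 6.36, 6.30 and 6.39 with nitrate, against 5.04, 5.73 and 6.04 at the lowest, median and highest control. No value of one group reached the other. The difference was 0.68 (SE 0.16, interval 0.32 to 1.03, P = 0.00159, exact permutation P = 0.00433), the same direction as in its neighbours.

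Col4a1 and Col4a2, the chains of all basement membranes, gave no such difference. Col4a1 read 12.34, 12.28, 12.27, 11.84 and 12.07 with nitrate, 2 of them below the control range of 12.11 to 12.36 (median 12.23). Col4a2 read 12.51, 12.60, 12.40, 12.17 and 12.16 with nitrate, 2 above and 2 below the control range of 12.24 to 12.44 (median 12.40). In both the nitrate mice of the third slide were the lowest and the groups overlapped. The differences were -0.08 for Col4a1 (interval -0.29 to 0.14, exact permutation P = 0.487) and -0.00 for Col4a2 (interval -0.20 to 0.19, exact permutation P = 0.989). Both intervals lay below the estimates of 0.41 and 0.36 for Col4a5 and Col4a6. They overlapped, however, with the intervals of those genes (0.14 to 0.69 and 0.12 to 0.60). Whether the pairs differed from each other in their response was not tested.

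Within the slides, the nitrate mean of Col4a5 was above the control mean by 0.66, 0.28 and 0.33 on slides 1, 2 and 3, that of Col4a6 by 0.48, 0.09 and 0.42, that of Col4a4 by 0.22, 0.15 and 0.34, and that of Col4a3 by 0.86, 0.57 and 0.62. Slide 2 held a single nitrate mouse. Since no control reached the nitrate values of these 4 chains, the sign on each slide was fixed and only the sizes are informative. For Col4a1 the values were 0.07, -0.04 and -0.20, and for Col4a2 0.24, -0.02 and -0.20. Markers of smooth muscle, whose cells are wrapped in this basement membrane, had a summed signal of 685000 to 724000 with nitrate and 544000 to 717000 in controls, all 8 differences above 0 (median 0.18, with 54.6% above 0 over all names) and 1 called higher (4.27% of all names). Their part in the type IV differences was not tested.

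**Figure D2:**
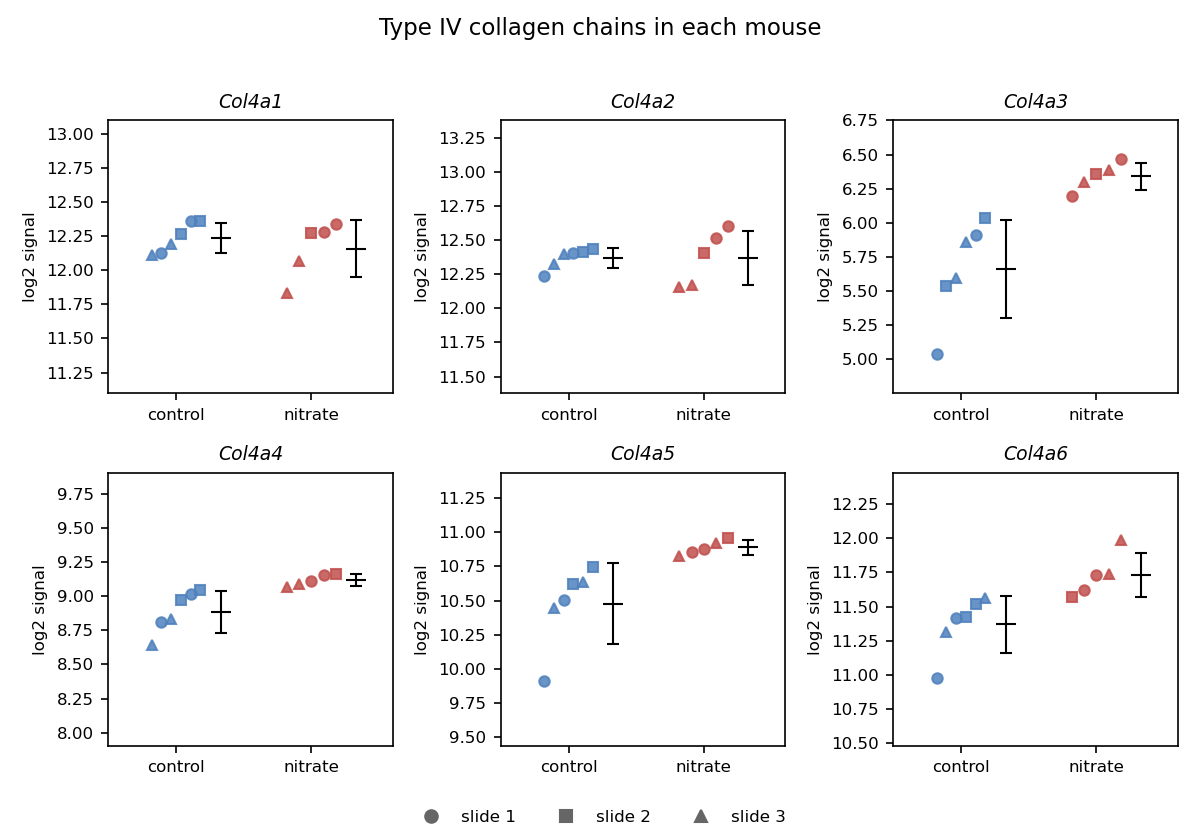
Log2 signal of the 6 type IV collagen chains in each mouse (y axis, with the same span in each panel), controls in blue and nitrate mice in red, with the slide as marker shape and the mean ± SD as line and bar. The nitrate mice lie above all controls for Col4a3, Col4a4, Col4a5 and Col4a6 and overlap with them for Col4a1 and Col4a2, where some nitrate mice lie outside the control range, and Col4a3 was outside the detection rule.

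The other network chains detected were those of type VIII, a short-chain collagen that is made by endothelial cells and by migrating smooth muscle cells. Col8a1 read 6.62, 7.48, 6.12, 5.81 and 6.23 with nitrate and 5.95 to 6.82 in controls (median 6.08), the widest spread among the nitrate mice of any detected collagen (SD 0.64). Its difference of 0.26 (interval -0.31 to 0.84, exact permutation P = 0.437) was highest in nitrate 2, and it was 1.00 on slide 1 and -0.43 on slide 3. Col8a2 was the largest fall among the network genes, by 0.13 on the log2 scale (exact permutation P = 0.299).

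Among the fibrillar collagens, Col5a3 was the exception. It encodes a minor chain of type V collagen, the regulator of fibril diameter. Its probe (mm9, chr9:20574592-20574651) read 7.74, 8.10, 8.30, 7.90 and 8.08 with nitrate, against 8.45, 8.55 and 9.11 at the lowest, median and highest control. Every nitrate mouse lay below every control. The means were 8.03 and 8.63, a difference of -0.61 (SE 0.13, interval -0.89 to -0.32) or 1.52-fold lower, with P = 5.87e-04, adjusted P = 0.120 and an exact permutation P = 0.00216, the smallest these numbers of mice can give. Within slides the difference was -0.60, -0.28 and -0.81, with a sign fixed by the groups that did not overlap.

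Adipocyte markers were measured beside Col5a3. All 8 markers (Adipoq, Plin1, Lep, Cidec, Fabp4, Retn, Cfd and Lipe) were detected and lower with nitrate on average (median difference -0.38), and 4 were called lower, against 4.62% of all names. Their summed signal was 241000 to 312000 in the nitrate mice and 311000 to 432000 in the controls. Nitrate 1, with the lowest sum, had the lowest Col5a3 value of all 11 mice, and control 3, with the highest sum, had the highest. Nitrate 4 and control 6, however, had sums of 311800 and 311200 and Col5a3 values of 7.90 and 8.48. The aortas had been cleaned of surrounding fat before RNA extraction, and the part of residual fat in the Col5a3 difference was not tested.

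The other chain of type V that was detected, Col5a1, leaned the opposite way. It read 11.72, 11.70, 11.46, 11.49 and 11.38 with nitrate and 10.996 to 11.53 in controls (median 11.36), the largest rise among the fibrillar genes. The groups overlapped, and the difference of 0.21 (interval -0.02 to 0.45, exact permutation P = 0.0823) did not pass. It was 0.58 on slide 1, -0.07 on slide 2 and 0.08 on slide 3. Col5a2, whose spot was found on 1 nitrate and 4 control arrays, had a difference of 0.13 (exact permutation P = 0.268) outside the detection rule.

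The chains of the bulk fibrils, types I and III, were not called. Col1a1 read 13.91, 14.24, 13.99, 14.06 and 13.94 with nitrate and 13.63 to 14.24 in controls (median 13.87), a difference of 0.11 (interval -0.12 to 0.35, exact permutation P = 0.323). Col1a2, its partner chain, read 16.09, 16.37, 16.32, 16.07 and 15.87 with nitrate and 15.80 to 16.18 in controls (median 16.03), a difference of 0.14 (interval -0.08 to 0.36, exact permutation P = 0.216). Col3a1, the chain of the distensible fibrils of vessel walls, read 14.05, 14.21, 14.06, 13.96 and 13.91 with nitrate and 13.50 to 14.06 in controls (median 13.91), a difference of 0.16 (interval -0.06 to 0.38, exact permutation P = 0.136).

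In each of these the groups overlapped and the difference was largest on slide 1. On slides 1, 2 and 3 it was 0.36, 0.12 and -0.16 for Col1a1, 0.31, 0.27 and -0.07 for Col1a2 and 0.44, 0.02 and 0.03 for Col3a1. Slide 1 carried control 1, which had the lowest value of all mice in each of the 3. The intervals allow a rise of up to 0.38 on the log2 scale and a fall of up to 0.12 or less, depending on the gene. The cartilage chain Col2a1 (0.10) and Col27a1 (0.03) had intervals that reach beyond 0.4 on both sides.

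**Figure D3:**
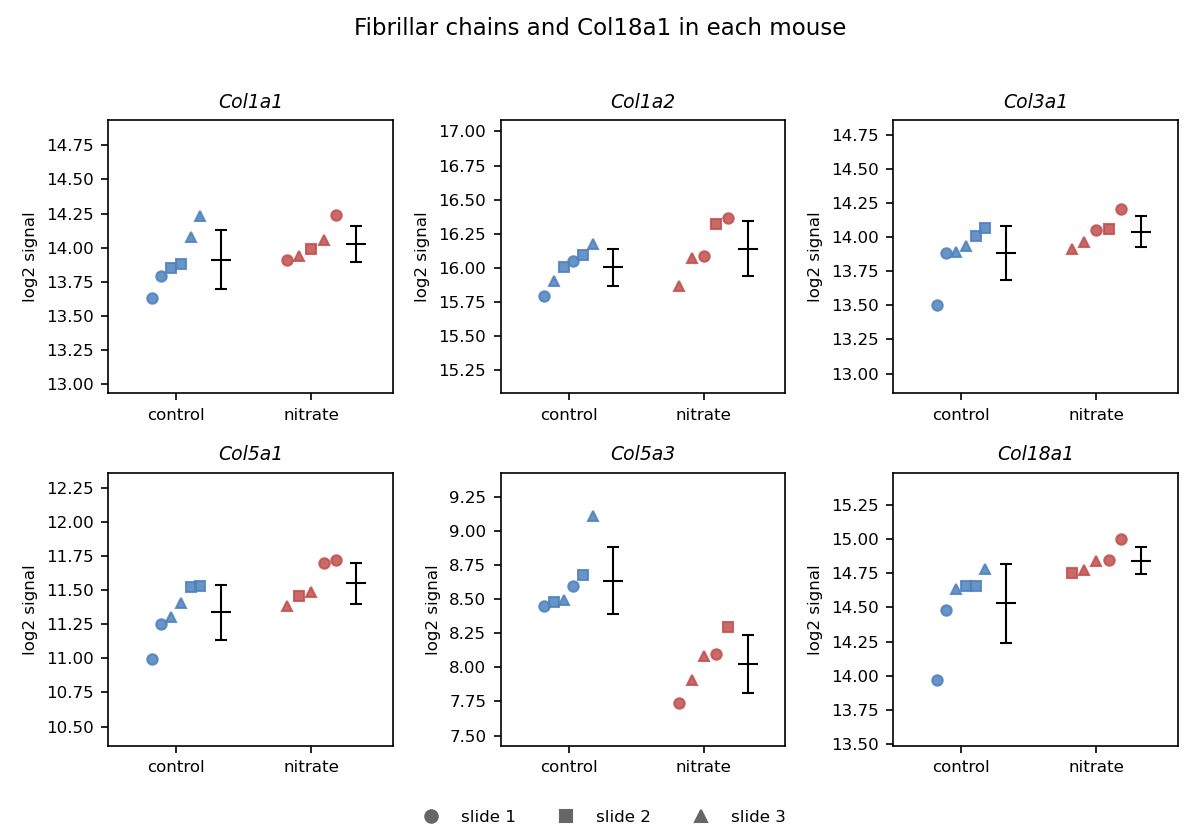
Log2 signal of Col1a1, Col1a2, Col3a1, Col5a1, Col5a3 and Col18a1 in each mouse (y axis), controls in blue and nitrate mice in red, with the slide as marker shape and the mean ± SD as line and bar. Col5a3 is the only one of these whose groups do not overlap, with all nitrate mice lower, and the low control of Col18a1 and Col3a1 is control 1.

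Outside the fibrillar and network classes, Col18a1 was the one member called. Its brighter probe (mm9, chr10:76514926-76514985) read 14.84, 15.003, 14.75, 14.78 and 14.84 with nitrate, against 13.97, 14.65 and 14.78 at the lowest, median and highest control. The groups overlapped at their edges, and control 1 lay far below the other controls. The difference was 0.31 (SE 0.13, interval 0.03 to 0.59) or 1.24-fold, with P = 0.0314, adjusted P = 0.312 and exact permutation P = 0.0130, and the second detected probe gave 0.27 (exact permutation P = 0.0346). Within slides it was 0.70, 0.09 and 0.10. Without control 1 the difference was 0.20, below the fold threshold, and without nitrate 1, nitrate 2, nitrate 5 or control 2 (differences of 0.27 to 0.31) it no longer passed at P below 0.05, so that this call rests on single mice.

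Col15a1, the other multiplexin, had 3 detected probes. The brightest, with the repeat printed above, read 8.65, 8.64, 8.41, 8.18 and 8.09 with nitrate and 7.89 to 8.46 in controls (median 8.15), a difference of 0.24 (interval -0.07 to 0.54, exact permutation P = 0.149). Both nitrate mice of slide 1 were high and those of slide 3 lay within the controls. The other probes, which overlap each other on the genome (mm9, chr4:47325273-47325332 and chr4:47325261-47325320), gave 0.37 (exact permutation P = 0.117) and 0.51 (exact permutation P = 0.0736). In limma the last passed both thresholds, so the probes of Col15a1 disagree in call though not in direction.

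Type VI collagen, the beaded filament next to basement membranes, differed little. Col6a1 had a difference of 0.05 (interval -0.18 to 0.28, exact permutation P = 0.699), with nitrate values of 13.18 to 13.32 inside a control range of 12.80 to 13.43. Col6a2 had a difference of 0.02 (interval -0.29 to 0.33, exact permutation P = 0.890), with nitrate values of 11.26 to 11.85 and control values of 11.18 to 11.77. Col7a1 (0.16, exact permutation P = 0.548) and the transmembrane Col23a1 (0.01, exact permutation P = 0.922), the smallest difference of this class, did not pass either.

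The FACIT genes gave 4 differences above 0 and none called. Col14a1, which binds to the surface of type I fibrils, was the largest, with 11.85, 11.94, 12.03, 12.22 and 11.96 with nitrate and 11.70 to 11.96 in controls (median 11.88). Its groups overlapped and the difference was 0.15 (interval -0.03 to 0.33, exact permutation P = 0.0823), with 0.10 (exact permutation P = 0.383) for the probe printed above. By exact permutation tests, Col16a1 had 0.15 (P = 0.258) and, at its second detected probe, 0.32 (P = 0.141), Col12a1 0.13 (P = 0.561) and Col20a1 0.03 (P = 0.877). The fall of Col9a2 by 0.13 on the log2 scale (exact permutation P = 0.357) was the only negative value.

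**Figure D4:**
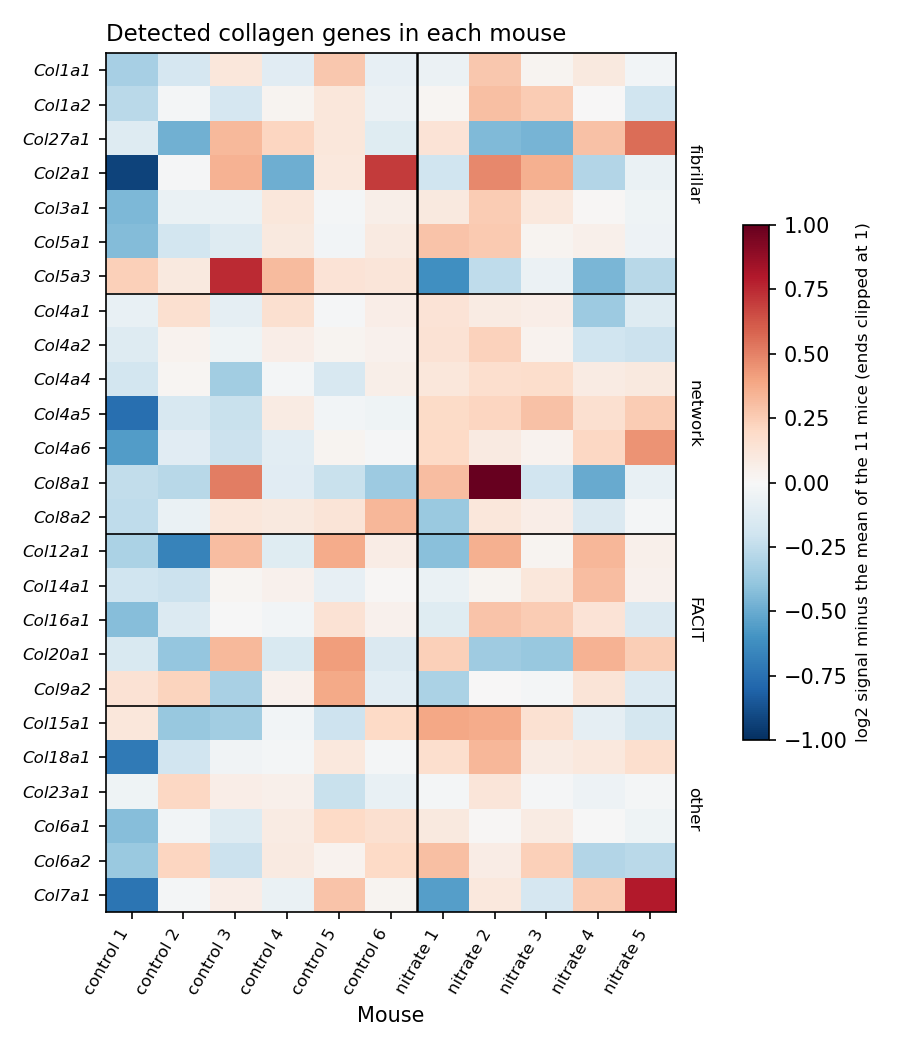
Each detected collagen gene (rows, by class) in each mouse (columns), as log2 signal minus the mean of the 11 mice (colour, red above and blue below, with ends clipped at 1, which affects Col8a1 in nitrate 2 alone, at 1.17). The control 1 column is mostly blue, and the Col5a3 row is red in all controls and blue in all nitrate mice.

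Read by mouse rather than by gene, the collagen means of nitrate and control mice overlapped. Averaged over the 25 genes after centring each on its mean, the nitrate mice lay at 0.00, 0.17, 0.04, 0.00 and 0.03 and the controls at -0.30, -0.10, 0.02, 0.01, 0.08 and 0.05. The control mean was thus low in controls 1 and 2 and among the nitrate values in the other 4. Nitrate 2 had the highest value of the 11 mice in 7 genes. The summed signal of fibroblast markers was 108000 to 135000 with nitrate and 102000 to 121000 in controls. The sum was lowest in control 1 and highest in nitrate 2, as the collagen mean was, but control 2, with the second lowest collagen mean, had 119800 and nitrate 1, at a collagen mean of 0.00, had 107700. All 8 fibroblast markers had differences above 0 (median 0.22, with 54.6% above 0 over all names). None was called, against 8.89% of all names. In limma Cd34, Lum, Mfap5 and Pi16 had an unadjusted P below 0.05 (14.5% of all names) at folds below 1.2, and the others did not. The part of fibroblasts in the collagen values was not tested.

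Members without a detected probe numbered 16. They were the fibrillar Col5a2, Col11a1, Col11a2 and Col24a1, the network Col4a3 and Col10a1, the FACIT genes Col9a1, Col9a3, Col19a1 and Col22a1, and Col6a4, Col6a6, Col13a1, Col17a1, Col25a1 and Col28a1. For 9 of them the probe was well above background on no array. Of the chondrocyte markers, 4 of 7 were likewise not detected (Hapln1, Lect1, Matn1 and Matn3), while Acan was called higher (exact permutation P = 0.0823), having entered through the nitrate group (detected on 5 nitrate and 4 control arrays). The summed signal of all 7 chondrocyte markers, detected or not, was 3570 to 7070 with nitrate and 3380 to 5230 in controls.

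Genes that make, process, bind or degrade collagen were read from a list of 60 on the array, chosen by role, of which 52 were detected. Of these, 6 were called higher and 1 lower, against 4.27% and 4.62% of all names. The median difference was 0.11 with 41 above 0, against a median of 0.02 and 54.6% above 0 over all names. None passed after adjustment in limma (smallest adjusted P = 0.162), whereas 15 had an unadjusted P below 0.05, against 14.5% of all names. By role, beside the 8.89% of all names called in either direction, 1 of 18 procollagen enzymes was called, 2 of 6 genes of propeptide removal, 1 of 5 crosslinking enzymes, 1 of 8 receptors, none of 11 fibril regulators and 2 of 4 collagen-degrading enzymes.

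Fkbp10, a prolyl isomerase and collagen chaperone of the endoplasmic reticulum, was higher by 0.34 (exact permutation P = 0.00649), with 12.69 to 12.95 in the nitrate mice and 12.25 to 12.76 in controls. Bmp1, which cleaves the C-terminal propeptide of fibrillar procollagens, was higher by 0.33 (exact permutation P = 0.0216) and its relative Tll1 by 0.33 (exact permutation P = 0.0519). Loxl4, a lysyl oxidase of crosslinking, was higher by 0.49 (exact permutation P = 0.0152). Ddr1, a receptor tyrosine kinase activated by collagen, including type IV, was higher by 0.30 (exact permutation P = 0.00649), and its nitrate values (9.10 to 9.31) all lay above the controls (8.59 to 9.06). Among the enzymes that degrade collagen, Ctsk, the protease cathepsin K, was higher by 0.28 (exact permutation P = 0.0455), whereas Mmp9, which acts on type IV and denatured collagen, fell by 0.50 on the log2 scale (exact permutation P = 0.0130). Mmp9 was detected on 4 nitrate and 6 control arrays, so it entered the comparison through the controls, where it was higher. Leaving out nitrate 2 reduced the number called from 7 to 4, while the number over all 18294 names went from 1626 to 1243. Without control 1, Ddr1 (0.24), Bmp1 (0.24) and Ctsk (0.23) were no longer called. Bmp1 was also lost without nitrate 2, Ctsk without nitrate 2, 3 or 4 or control 2, and Tll1 without nitrate 2 or 3 or control 2, 4 or 5, whereas Fkbp10 and Loxl4 were called whichever mouse was left out. Mmp9 and Tll1 were not tested where detection on all 11 arrays was required. With normexp background correction Loxl4 (0.22), Mmp9 (-0.17) and Tll1 (0.10) were not called, and with the mean of the detected probes of a gene Bmp1 (0.17) and Loxl4 (0.27) were not. Tll1 was also not called with an offset of 16 (0.23) or with a trended robust prior.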

How the data were processed

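One-color Agilent arrays of the aorta of 11 old mice were used. The authors deposited, for each array, spot intensity values and flags from Feature Extraction 10.7.1.1 (background-subtracted, not normalized between arrays) and a table of processed log2 values, quantile normalized and centred on the median over the arrays, made with GeneSpring GX 12.5 per the labels. Each column of the log2 table matched its own array (r of at least 0.9999).

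Processed signals under 1 were set to 1, and values were put on the log2 scale and quantile normalized, without control and outlier-flagged spots and with spots of a probe averaged. Detected probes (23632) were compared in R 4.3.3 with limma 3.58.1 (lmFit, eBayes), with Benjamini-Hochberg adjustment, and single genes by two-sided exact permutation over 462 divisions. Background shares were taken over 1 probe per name. The limma step was tested on simulated data. No spot was saturated, and at most 186 of 59305 spots per array were flagged. The number of arrays limits the precision.

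Named were members called or with P below 0.05, chains known in the arterial wall, the largest rise and fall per class, and members whose probes disagree. Members and lists were chosen with earlier results of these data known. Replicate numbers did not pair the mice (correlations of deviations between -0.14 and 0.18). Other scaling, background correction, offsets, detection rules, priors, slide or replicate blocks, probe averaging and leaving out each array were tried. Probe positions (mm9) are those of the array files.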

Additional observations from a re-analysis of the deposited data

Results flagged for a closer look

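In 7 groups of values 1 mouse stood apart within its group, as its gap to the nearest mouse took up much of the range of that group (the share is given in parentheses). Control 1 was low in Col3a1 (0.675), Col4a5 (0.640), Col18a1 (0.637) and Col7a1 (0.651). Control 3 was high in Col5a3 (0.658) and Col8a1 (0.720). Nitrate 2 was high in Col23a1 (0.806). Over 25 genes this made 6 such values among controls and 1 among nitrate mice, where chance alone gives about 1.25 in each group (1 in 20).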

How the results depend on the processing

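Col4a5, Col4a6 and Col5a3 were called under each alternative run (differences of 0.30 to 0.47, 0.28 to 0.40 and -0.68 to -0.48), and no difference of a detected member that was called reversed. The number of collagen genes called, 4 (1626 of all 18294 names), was 7 (6 higher) without a detection filter (2239 of 36413 names), where Col10a1 and Col13a1, well above background on no array, and Col4a3 came in. It was 5 (1785 of 19749 names) when detection did not require the found flag, an alternative chosen after seeing the data, which added Col4a3 (0.68, adjusted P = 0.137). Leaving out 1 mouse at a time gave 3 to 5 called, 2 to 4 of them higher and 1 lower, and 0 after adjustment. The processing and receptor list, with 7 called, had 4 with normexp background correction and 4 to 10 when 1 mouse was left out, while calls over all names went from 1626 to 1006 and to between 1198 and 1871. The replicate block called 5 collagen genes (Col4a4 added at 0.26), 4 of them higher, and 8 of the processing list. It called 1873 of all 18294 names, and the replicate numbers do not pair the mice. Over the single genes, Col5a1 passed P below 0.05 in 4 alternatives and Col14a1 and Col15a1 in 2 each. Col18a1 failed it in 4 and Col4a4 in 1. The causes were not tested.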
